A study of Mus musculus with 24 samples.

Results

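The proteasome genes were followed in dispersed mouse islet cells in which the tRNA fragment 5'tRF Glu(CTC) had been blocked and which were then exposed to the saturated fatty acid palmitate. They were taken as every protein-coding gene of the deposited table whose symbol begins with Psm, one of the letters a to g and a number, without the immunoproteasome genes Psmb8, Psmb9 and Psmb10. This gave 47 of the 41549 genes in the table, and 45 of them carried enough counts to be tested among 15916 genes. The set holds 31 genes for subunits of the standard 26S proteasome, 7 assembly chaperones, 6 activators or inhibitors, the germline subunit Psma8, the thymic subunit Psmb11, and Psmc3ip, a cofactor of meiotic recombination that shares only the letters of the symbol.

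Wild-type islet cells were transfected with 50 pmol of a control antisense oligonucleotide (Ctr) or of one against 5'tRF Glu(CTC) (αGlu), and kept for 48 h with 0.5 mM palmitate bound to bovine serum albumin (PA) or with 0.75% albumin alone (BSA), in medium with 1% serum. The study's methods name C57BL/6NRj mice of both sexes aged 12 to 14 weeks as its source of islets, without tying an age or sex to these libraries. Both oligonucleotides were combined with both media, which gave 4 groups of 6 libraries, 3 from each of 2 batches, and nothing in the labels says what set the batches apart. All 4 groups shared the dispersion of the islets and the transfection, so that no untransfected cells serve as a reference. The palmitate contrasts ask how proteasome mRNA stood under lipotoxic stress, and the αGlu contrasts whether blocking the fragment moved it.

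The 26S proteasome degrades proteins that carry ubiquitin chains. Its 20S core is a barrel of α rings, which gate the entrance, around β rings, in which Psmb5, Psmb6 and Psmb7 hold the proteolytic sites. The 19S particle caps the barrel, where a ring of ATPases (Psmc genes) unfolds substrates. Among its non-ATPase subunits (most Psmd genes) are those that bind ubiquitin or remove it. β-cells make very large amounts of one secreted protein, and misfolded proinsulin leaves the endoplasmic reticulum for this particle. When the proteasome falls short, the membrane-bound factor Nfe2l1 is freed, processed and carried to the antioxidant response elements of proteasome genes.

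The letters of that element were looked for first, because they are the known point at which one factor reaches many of these genes. RefSeq promoters (GRCm38.p6) were at hand for 39 of the 47 genes, with 42 start sites, and the 250 bases before each start were searched on both strands for the core TGACNNNGC. It was found in 5 of the 42 promoters (11.9%), against 10.2% of 32851 promoters of all genes. The matches are printed with up to 20 bases on either side within the window, read in the direction of the gene, with the match in capitals. They begin 47, 9, 31, 227 and 247 bases before the start of Psmb5, Psmb6, Psmd9, Psmc6 and Psmd12, in this order.
Psmb5 (chr14:54618014-54618062, minus strand): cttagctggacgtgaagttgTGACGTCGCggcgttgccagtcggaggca
Psmb6 (chr11:70525328-70525356, plus strand): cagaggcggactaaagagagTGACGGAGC
Psmd9 (chr5:123228139-123228187, plus strand): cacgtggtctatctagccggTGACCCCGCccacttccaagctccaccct
Psmc6 (chr14:45329577-45329625, plus strand, match on the opposite strand): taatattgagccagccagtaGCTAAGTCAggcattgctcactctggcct
Psmd12 (chr11:107479278-107479309, plus strand, match on the opposite strand): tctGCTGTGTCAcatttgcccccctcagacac
The CCAAT box, a common promoter element, stood in 14 of the 42 promoters (33.3%), against 33.8% of all promoters, and in none of the 5 listed here. Both shares lay near those of all genes, and a match says only that these letters are in the window.

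Proteasome mRNA was abundant in the islet cells. On the TPM scale (reads per transcript length, brought to the same sum in every library), the 31 subunit genes averaged from 32.9 for Psmd11 to 175.9 for Psmd2 over the 24 libraries, a span of 5.35 times. These means lay between the 75.4 and 97.0 percentile of 14576 tested protein-coding genes, whose median was 13.1 TPM. Together the 31 genes held 2023 to 2927 TPM per library, which is 0.202% to 0.293% of all transcripts.

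In the α ring, Psma6 was highest at 112 to 158 TPM (median 144) and Psma2 lowest at 43.8 to 63.3 TPM (median 57.4). The β ring ran from Psmb5, the chymotrypsin-like site, at 98.2 to 178 TPM (median 143), down to Psmb7, the trypsin-like site, at 40.5 to 59.4 TPM (median 51.3). Psmb6, the caspase-like site, lay between them at 56.9 to 101 TPM (median 89.1). The 3 catalytic subunits are present in equal number in each particle, whereas the TPM ranges of Psmb5 and Psmb7 did not overlap.

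Among the ATPases, Psmc5 stood highest (116 to 183 TPM, median 161). Psmc2 (42.6 to 62.4 TPM, median 56.2) and Psmc6 (34.2 to 67.6 TPM, median 55.3) were lowest, with nearly the same mean. Psmd2, the large scaffold of the 19S base, was measured at 121 to 198 TPM (median 178), and Psmd11, a subunit of the 19S lid, at 23.8 to 37.99 TPM (median 32.6). When the 31 subunit genes were put in order of their mean, the ranges of all 30 neighbouring pairs overlapped, so that the order is not resolved gene by gene.

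The assembly chaperones, which help the particle form and then leave it, were lower. Psmd10, Psmd5 and Psmd9, which serve the assembly of the ATPase ring, averaged 18.8, 13.4 and 8.05 TPM. Psmg1 to Psmg4, which build the α ring, averaged 29.8 TPM for Psmg1, 24.96 for Psmg2, 21.2 for Psmg4 and 6.17 for Psmg3. The activator Psme3, a nuclear cap that works without ubiquitin, was highest of its class at 59.0 to 98.9 TPM (median 87.5), while Psme2b, a near-identical copy of Psme2 whose reads could not be separated with certainty, averaged 2.89 TPM.

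Both tissue-restricted subunits were nearly silent. Psma8, which replaces an α subunit in the testis, gathered 39 counts in 24 libraries, and Psmb11, the catalytic subunit of the thymus, 9 counts. Neither passed the filter on low counts, so neither was tested.

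**Figure D1:**
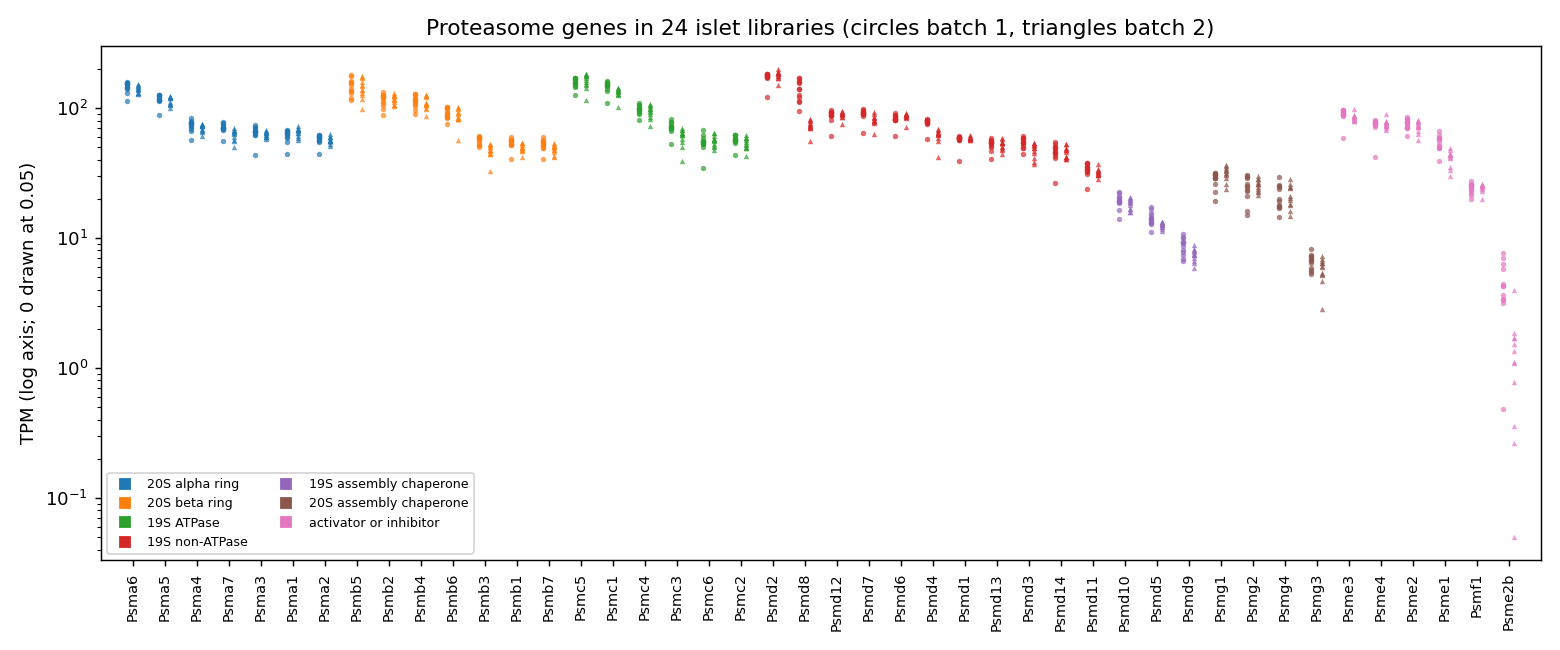
TPM (log axis, a value of 0 drawn at 0.05) of 44 tested proteasome genes, ordered by role and by mean, with 1 point per library, circles for the 12 libraries of batch 1 and triangles for the 12 of batch 2. The subunit genes lie between 32.9 and 175.9 TPM on average and the chaperones below them, and Psmd8 splits by batch.

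The immunoproteasome subunits, which take the place of the catalytic subunits after exposure to interferon or in immune cells, were lower than these in TPM. As a share of the TPM of each pair, Psmb8 made up 4.08% to 10.9% of Psmb8 plus Psmb5 (median 6.04%) and Psmb9 4.32% to 7.71% of Psmb9 plus Psmb6 (median 5.26%). Psmb10 took 14.2% to 32.7% of Psmb10 plus Psmb7 (median 24.1%). The 10 macrophage markers summed to 191 to 793 TPM over the libraries, and the share of these genes that came from macrophages was not tested. In mixed cells such as these, fewer cells of a type and less RNA per cell cannot be told apart.

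As a check of the labelled tissue, the 10 β-cell markers were detected in every library, at a summed 204159 to 328989 TPM. Library totals ran from 18214719 to 35001979 counts, and the spread between replicates corresponded to a biological coefficient of variation of 15.4%. A library of Ctr BSA (S1) and one of Ctr PA (S23) held the lowest subunit sums, 2023 and 2117 TPM against 2341 to 2927 in the other 22. S1 also had the smallest total and the smallest scaling factor (0.853), and S23 the fewest genes with counts (17367). The palmitate calls and the correlations are also given without both. The intervals of the αGlu contrasts and the values of partner genes and markers are given only with both.

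In Ctr cells, 8.89% of the 45 tested proteasome genes were called higher under palmitate, against 15.5% of all genes, and the rises were small. Psmd14, the deubiquitinase of the 19S lid, Psmg2 and Psmg4, chaperones of the α ring, and Psmc6, an ATPase, were higher under PA, by 14.2% (Psmc6) to 28.7% (Psmg4), and no proteasome gene was called lower. The levels that follow are CPM (counts scaled by library size) after TMM scaling, a unit that suits comparison of 1 gene between libraries but not between genes.

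Psmd14 (ENSMUSG00000026914, GRCm38 chr2:61711694-61800376, plus strand) lay at 35.8 to 43.3 CPM in Ctr BSA (median 42.1) and at 46.9 to 54.3 CPM in Ctr PA (median 50.6). All 6 PA libraries stood above all 6 BSA libraries. The log2 fold change was 0.28 (SE 0.066, adjusted p = 0.00227, edgeR quasi-likelihood test), with 0.30 in batch 1 and 0.27 in batch 2.

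Psmg2 measured 9.87 to 16.7 CPM in Ctr BSA (median 13.9) and 16.1 to 18.5 CPM in Ctr PA (median 17.2). The groups overlapped, with 5 of 6 PA libraries above the highest BSA library. Its log2 fold change was 0.34 (SE 0.085, adjusted p = 0.00381, edgeR), made up of 0.57 in batch 1 and 0.13 in batch 2.

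Psmg4 (ENSMUSG00000071451, chr13:34162964-34178173, plus strand) was found at 3.24 to 4.57 CPM without palmitate (median 3.74) and at 3.97 to 5.93 CPM with it (median 4.71). Again 5 of 6 PA libraries exceeded every BSA library. The log2 fold change of 0.36 (SE 0.13, adjusted p = 0.0431, edgeR) passed narrowly, and it no longer passed when any one of 9 libraries was left out.

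Psmc6 spread from 57.3 to 73.9 CPM in Ctr BSA (median 63.7) and from 62.3 to 89.1 CPM in Ctr PA (median 75.3). The groups overlapped broadly, and 3 of 6 PA libraries lay above the BSA range. Its log2 fold change of 0.19 (SE 0.073, adjusted p = 0.0499, edgeR) was at the threshold and was lost in 19 of the 24 fits that left out 1 library.

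These 4 calls were 8.89% of the 45 tested genes, and the share called lower was 0, whereas 15.5% of all 15916 genes were called higher and 14.5% lower. Of the 45 log2 fold changes, 33 were above 0 (73.3%, against 51.1% of all genes). Their median was 0.062, against 0.0074 for all genes. The middle 50% of all genes spread over -0.21 to 0.18, where that of the proteasome genes spread over -0.012 to 0.11. The proteasome genes vary together between libraries, so their signs are not 45 separate observations. No proteasome gene reached the study's own threshold of a 2-fold change with p below 0.05, taken here as unadjusted. In this fit 941 genes did, fewer than the study counted with its own fit.

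By role, the 20S assembly chaperones had 2 of 4 genes called, the ATPases 1 of 6 and the other 19S subunits 1 of 11. The α ring (0 of 7), the β ring (0 of 7), the 19S chaperones (0 of 3) and the activators and inhibitors (0 of 6) had none. The catalytic genes gave log2 fold changes of 0.19 for Psmb5 (SE 0.092, adjusted p = 0.129, edgeR), 0.072 for Psmb6 (adjusted p = 0.563, edgeR) and 0.071 for Psmb7 (adjusted p = 0.428, edgeR). Psmb5 in Ctr PA ranged from 34.8 CPM in S23 to 57.9 CPM, with a median of 50.4, against 37.9 to 49.0 CPM in Ctr BSA with a median of 42.2.

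This comparison was the one most affected by single libraries. With both S1 and S23 left out, 13 genes were called higher and 1 lower in Ctr cells, where 18% and 16.3% of all genes were called. That setting was chosen after seeing the data, including the subunit levels of these libraries. Psmb5 and Psmb6 both lay 0.51 log2 units below their fitted level in S23, and 0.20 and 0.24 above it in S1. Leaving out such libraries raises the palmitate difference of these genes by itself, so the adjusted p-values that follow are no added support. Psmd14, Psmg2 and Psmg4 were among the 13, while Psmc6 was not. The additions included the catalytic genes Psmb5 (log2 fold change 0.33, adjusted p = 0.000475, edgeR) and Psmb6 (0.23, adjusted p = 0.00104, edgeR), their ring neighbour Psmb4 (0.25, adjusted p = 0.0022, edgeR) and the lid subunit Psmd13 (0.21, adjusted p = 0.000941, edgeR). The gene called lower was the 19S chaperone Psmd5 (-0.18, adjusted p = 0.0419, edgeR). Leaving out S23 alone gave 8 calls, and leaving out S7 (Ctr PA) or S13 (Ctr BSA) alone gave 2.

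In αGlu cells palmitate gave 7 calls, all higher, a share of 15.6% against 14.4% of all genes called higher. They were the β-ring genes Psmb2, Psmb4 and Psmb5, the lid subunit Psmd11, the 19S chaperone Psmd9, and again Psmg2 and Psmg4.

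Psmd11 (ENSMUSG00000017428, chr11:80428615-80473248, plus strand) stood at 69.0 to 74.9 CPM in αGlu BSA (median 71.0) and at 76.1 to 82.2 CPM in αGlu PA (median 79.6). No library of one group reached the other. The rise was small and even, with a log2 fold change of 0.14 (SE 0.039, adjusted p = 0.00672, edgeR), 0.19 in batch 1 and 0.10 in batch 2.

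Psmb5 (ENSMUSG00000022193, chr14:54614119-54618022, minus strand) measured 39.4 to 45.8 CPM in αGlu BSA (median 41.7) and 46.5 to 60.2 CPM in αGlu PA (median 50.4). Here too the groups were apart, all 6 PA libraries being higher. The log2 fold change was 0.29 (SE 0.092, adjusted p = 0.0204, edgeR), with 0.28 in batch 1 and 0.29 in batch 2. The Psmb5 exons overlap those of the microRNA gene Mir686 on the same strand over 12.1% of their length.

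Psmg4 lay at 2.72 to 4.18 CPM in αGlu BSA (median 3.33) and at 3.41 to 5.52 CPM in αGlu PA (median 5.04). Of the 6 PA libraries, 5 were above the BSA range. Its log2 fold change, 0.46 (SE 0.13, adjusted p = 0.0119, edgeR), was the largest of any proteasome gene in either palmitate comparison.

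Psmd9 ran from 12.4 to 15.9 CPM (median 13.9) in BSA and from 14.8 to 18.6 CPM (median 16.8) in PA, again with 5 of 6 PA libraries above the BSA range. The log2 fold change was 0.27 (SE 0.079, adjusted p = 0.0119, edgeR). A long non-coding gene on the other strand, Gm26745, covers 25.5% of its exons, and the sources used here do not say whether reads were counted by strand.

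Psmg2 took values of 12.2 to 15.3 CPM (median 14.4) in BSA and of 14.8 to 19.4 CPM (median 17.5) in PA, and 4 PA libraries exceeded the BSA range (log2 fold change 0.28, SE 0.084, adjusted p = 0.0141, edgeR). Psmb2, a structural β subunit, was at 40.3 to 56.4 CPM (median 45.98) and 49.8 to 58.2 CPM (median 52.6), where 2 PA libraries exceeded the BSA range (0.21, SE 0.063, adjusted p = 0.0160, edgeR). Psmb4, another structural β subunit, was at 64.0 to 79.4 CPM (median 73.8) and 73.9 to 94.6 CPM (median 81.9), with 4 PA libraries above (0.19, SE 0.071, adjusted p = 0.0456, edgeR), and this call was lost in 14 of the 24 fits that left out 1 library.

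The 7 calls made up 15.6% of the tested genes, close to the 14.4% of all genes called higher, while none was called lower against 14.2% of all genes. Of 45 log2 fold changes 36 were above 0 (80%, against 50.9% of all genes), with a median of 0.069, against 0.0055 for all genes. By role, 3 of 7 β-ring genes, 1 of 11 other 19S subunits, 1 of 3 19S chaperones and 2 of 4 20S chaperones were called, and none of the 7 α-ring genes, 6 ATPases or 6 activators and inhibitors. The remaining catalytic genes gave 0.16 for Psmb6 (SE 0.086, adjusted p = 0.180, edgeR) and 0.063 for Psmb7 (adjusted p = 0.499, edgeR). Without S1 and S23, neither of which is an αGlu library, the same 7 genes and 3 more were called higher and none lower, where 18.1% and 17.7% of all genes were called. The 3 were Psmb6 (0.16, adjusted p = 0.00859, edgeR), Psmd3 (0.16, adjusted p = 0.0131, edgeR) and Psmc5 (0.14, adjusted p = 0.0359, edgeR). Both libraries were picked after seeing the data, and both enter the estimate of spread that all groups share. The fold changes hardly moved (Psmb5 0.286 against 0.289), so these adjusted p-values are no added support either.

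Psmg2 and Psmg4 were called in both palmitate comparisons, which is 50% of the calls in Ctr and 28.6% of those in αGlu cells. A gene called in 1 of the 2 did not thereby differ between them. The difference of the palmitate responses, αGlu minus Ctr, was tested by the interaction term, and no proteasome gene passed by edgeR or DESeq2 or had an unadjusted p below 0.05. The smallest p among them was that of Psmd14 (log2 difference -0.19, SE 0.093, unadjusted p = 0.0567, adjusted p = 0.999, edgeR), whose palmitate response was 0.28 in Ctr and 0.095 in αGlu cells. At this precision the 95% intervals of the 31 subunit genes reached from -23.1% (Psmd14) to 33.2% (Psmd8).

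**Figure D2:**
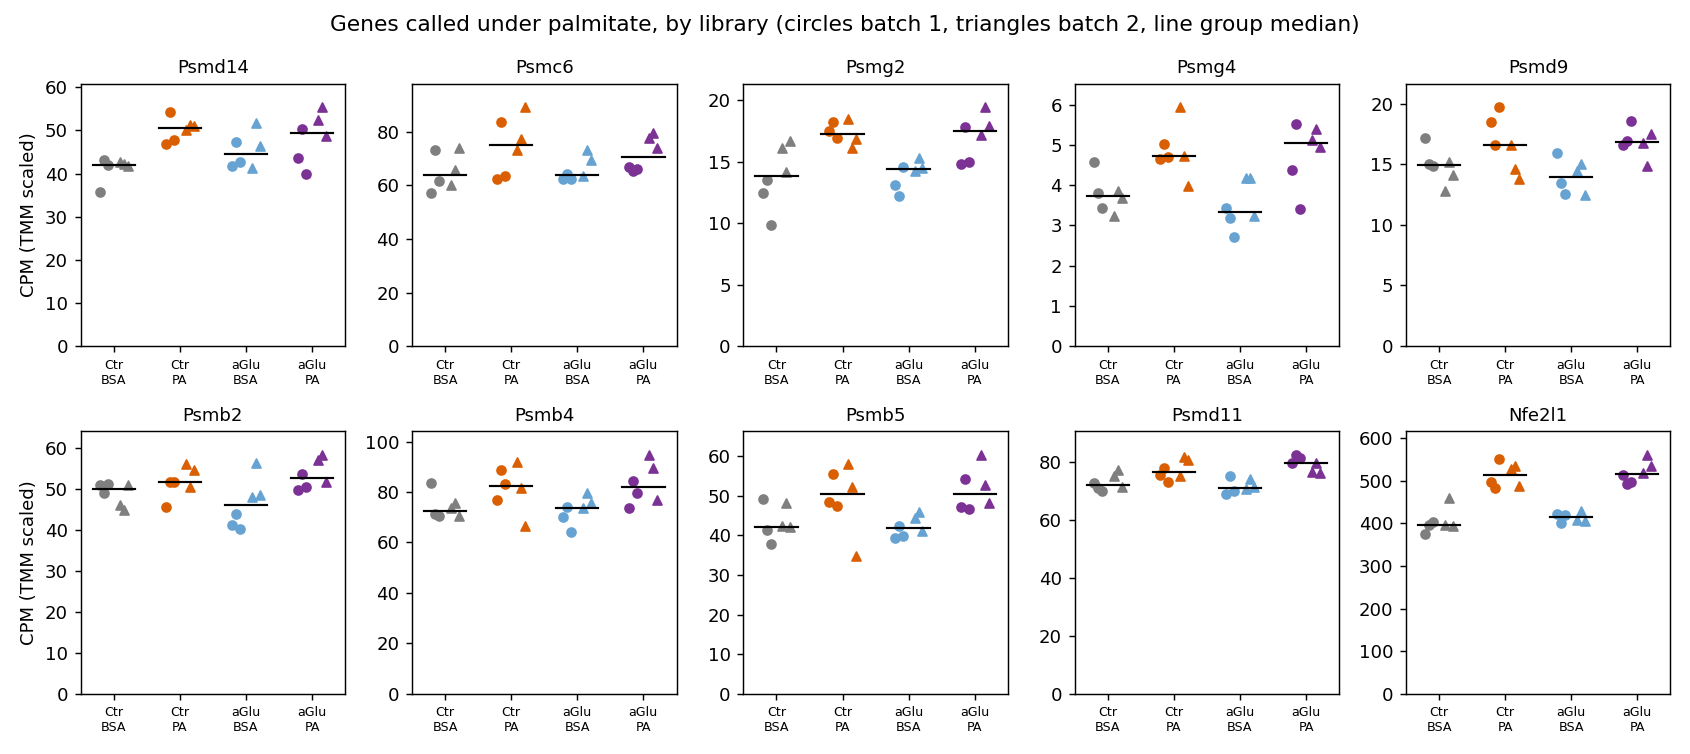
CPM after TMM scaling in each of the 24 libraries for the 9 proteasome genes called in a palmitate comparison and for Nfe2l1, by group, with circles for batch 1, triangles for batch 2 and a line at the group median. In Ctr cells the BSA and PA points are apart for Psmd14, in αGlu cells for Psmb5 and Psmd11, and the single low Ctr PA point of Psmb5 is library S23 at 34.8 CPM.

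The antisense oligonucleotide by itself was not followed by a detectable change of any proteasome gene. In BSA, αGlu against Ctr gave 0 calls by edgeR and by DESeq2 among the proteasome genes, and 1 gene, Psma1 of the α ring, had an unadjusted p below 0.05 (log2 fold change -0.11, unadjusted p = 0.0416, adjusted p = 1, edgeR). In PA there were 0 calls by both tools and 0 genes at an unadjusted p below 0.05. Over all 15916 genes edgeR likewise called 0 in either comparison, with 461 and 538 genes at an unadjusted p below 0.05, and DESeq2 called 8 and 30. Of all genes, 125 and 150 passed the study's threshold of a 2-fold change with an unadjusted p below 0.05 in this fit. The study counted more in both comparisons with its own fit.

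The size of change that these data leave room for is given by the intervals of the 31 subunit genes. In BSA they reached from -19.3% (Psmd8) to 20.3% (Psmd14), and in PA from -13.8% (Psmc6) to 20.6% (Psmc3). The median log2 fold change of the 45 genes was 0.0021 in BSA and 0.036 in PA, against 0.00071 and -0.0044 for all genes. The catalytic gene Psmb5 had medians of 42.2 CPM in Ctr and 41.7 CPM in αGlu cells under BSA, and of 50.4 CPM in both under PA.

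Genes that act with the proteasome were read from a list of 31, of which 30 were tested. Under palmitate 7 rose and 2 fell in Ctr cells (23.3% and 6.67%, against 15.5% and 14.5% of all genes), and 6 rose and 2 fell in αGlu cells (20% and 6.67%, against 14.4% and 14.2%). The factor Nfe2l1 led both comparisons. It stood at 374 to 458 CPM in Ctr BSA (median 395) and at 482 to 551 CPM in Ctr PA (median 513). In αGlu cells it stood at 400 to 430 CPM (median 414) and at 491 to 560 CPM (median 515). The groups were apart in both. Its log2 fold changes were 0.35 (SE 0.047, adjusted p = 6.28e-06, edgeR) and 0.32 (SE 0.047, adjusted p = 1.58e-05, edgeR).

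Ngly1, the enzyme that removes sugars from Nfe2l1 so that it can be activated, rose by 0.19 (adjusted p = 0.00944, edgeR) in Ctr and by 0.25 (adjusted p = 0.00118, edgeR) in αGlu cells on the log2 scale. Nfe2l2, its relative of the oxidative stress response, fell by 0.32 (adjusted p = 0.00296, edgeR) and by 0.36 (adjusted p = 0.00107, edgeR). Zfand2a, a stress-induced partner of the 19S particle, rose by 0.32 and 0.30 (adjusted p = 0.0144 and 0.0201, edgeR). Ubqln2, a shuttle that brings ubiquitinated proteins to the proteasome, fell by 0.17 and 0.18 (adjusted p = 0.03 and 0.0178, edgeR). Single libraries left out ended the call of Ubqln2 in 6 of 24 fits in Ctr and in 2 in αGlu cells, and that of Zfand2a in 3 in αGlu cells.

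Sem1, the smallest lid subunit, whose symbol lies outside the Psm series, was higher by 0.19 (adjusted p = 0.0437, edgeR) and 0.24 (adjusted p = 0.013, edgeR), and the first of these calls was lost when any one of 9 libraries was left out. The 20S maturation factor Pomp gave 0.17 and 0.15 (adjusted p = 0.0634 and 0.0919, edgeR), and did not pass. The ubiquitin receptor Adrm1 gave -0.18 and 0.012, the deubiquitinase Usp14 0.076 and 0.018, and Uchl5, a deubiquitinase held by Adrm1, 0.053 and -0.025, with adjusted p from 0.0947 to 0.935 (edgeR). The immunoproteasome genes Psmb8, Psmb9 and Psmb10 also did not pass, at -0.12, -0.11 and -0.14 in Ctr and -0.11, 0.039 and 0.0012 in αGlu cells.

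Markers of the cell types in the islet moved with palmitate as well. Of the 10 β-cell markers 3 were called higher and 3 lower in Ctr PA, and 3 higher and 2 lower in αGlu PA, with summed levels of 208585 to 316089 TPM in Ctr BSA, 204159 to 302465 in Ctr PA, 220159 to 328989 in αGlu BSA and 213123 to 305024 in αGlu PA. Among α-, δ- and PP-cell markers 2 and 1 of 7 were called lower, and among ductal markers 3 of 7 in both comparisons, while no endothelial or glial marker was called. Of the tested fibroblast markers 6 of 7 were called lower in Ctr PA and 4 of 7 in αGlu PA, and their summed level was 112 to 345 TPM in Ctr BSA, 8.36 to 41.5 in Ctr PA, 70.5 to 479 in αGlu BSA and 11.9 to 71.7 in αGlu PA, with Lum at 0 in a library of every group and Col1a1 and Pdgfra in one of αGlu PA. Macrophage markers were called lower for 7 of 10 in Ctr PA and 1 of 10 in αGlu PA (summed 191 to 793, 223 to 325, 236 to 425 and 221 to 344 TPM in the same order of groups, with Adgre1, C1qb, Itgam, Ptprc and Tyrobp at 0 in a library of αGlu PA, 2 of the 10 at 0 in one of Ctr PA and αGlu BSA each, and none in Ctr BSA). Acinar markers were called lower for 7 and 6 of 9. The part of these shifts in the proteasome values was not tested.

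More proteasome genes were called between the batches than in any treatment comparison, as held for all genes, and Psmd8, a lid subunit, led them. The batch comparison sets 12 libraries against 12, and a treatment comparison 6 against 6. Batch 2 against batch 1 gave 12 genes higher and 6 lower, which is 26.7% and 13.3% of the 45, against 26.1% and 25.4% of all genes. Psmd8 (ENSMUSG00000030591, chr7:29174188-29180701, minus strand) measured 114 to 184 CPM in the 12 libraries of batch 1 (median 146) and 67.3 to 91.0 CPM in the 12 of batch 2 (median 83.4). The batches did not overlap, and the log2 difference was -0.93 and -0.82 in Ctr cells with BSA and with PA, and -0.74 and -0.77 in αGlu cells. In the fit it was -0.83 (SE 0.073, adjusted p = 1.23e-09, edgeR), the only one among the subunit genes beyond 0.25 in size.

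Psmd4, a ubiquitin receptor of the 19S particle, was also apart between batches, at 70.6 to 80.8 CPM (median 75.1) and 46.5 to 68.6 CPM (median 65.1). Its log2 difference was -0.25 (adjusted p = 0.000113, edgeR). Psme1, a subunit of the interferon-induced activator cap, ran from 37.0 to 48.4 CPM (median 42.5) in batch 1 and from 26.1 to 38.2 CPM (median 34.3) in batch 2, with a small overlap and a log2 difference of -0.32 (adjusted p = 3.21e-05, edgeR). Lower calls of less certainty were Psmb3 (-0.18, adjusted p = 0.0192, edgeR) and Psme2b (-1.68, adjusted p = 0.00104, edgeR), which reached at most 2.17 CPM.

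The genes higher in batch 2 moved little. Psma1 went from a median of 62.7 CPM (54.8 to 70.8) to 72.3 CPM (62.6 to 79.6), a log2 difference of 0.18 (adjusted p = 0.000147, edgeR). The scaffold Psmd2 (0.15), the lid subunit Psmd6 (0.15), the scaffold Psmd1 (0.13) and the chaperone Psmg1 (0.25) followed, with adjusted p from 0.000247 to 0.00104 (edgeR), and the batches overlapped for each. The cell mixture differed between the batches too. All 10 β-cell markers were called higher and all 9 tested acinar markers lower in batch 2, where the acinar sum was 487 to 1536 TPM against 7842 to 44407 TPM in batch 1, with no marker of either list at 0, and the part of this in the batch differences was not tested.

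**Figure D3:**
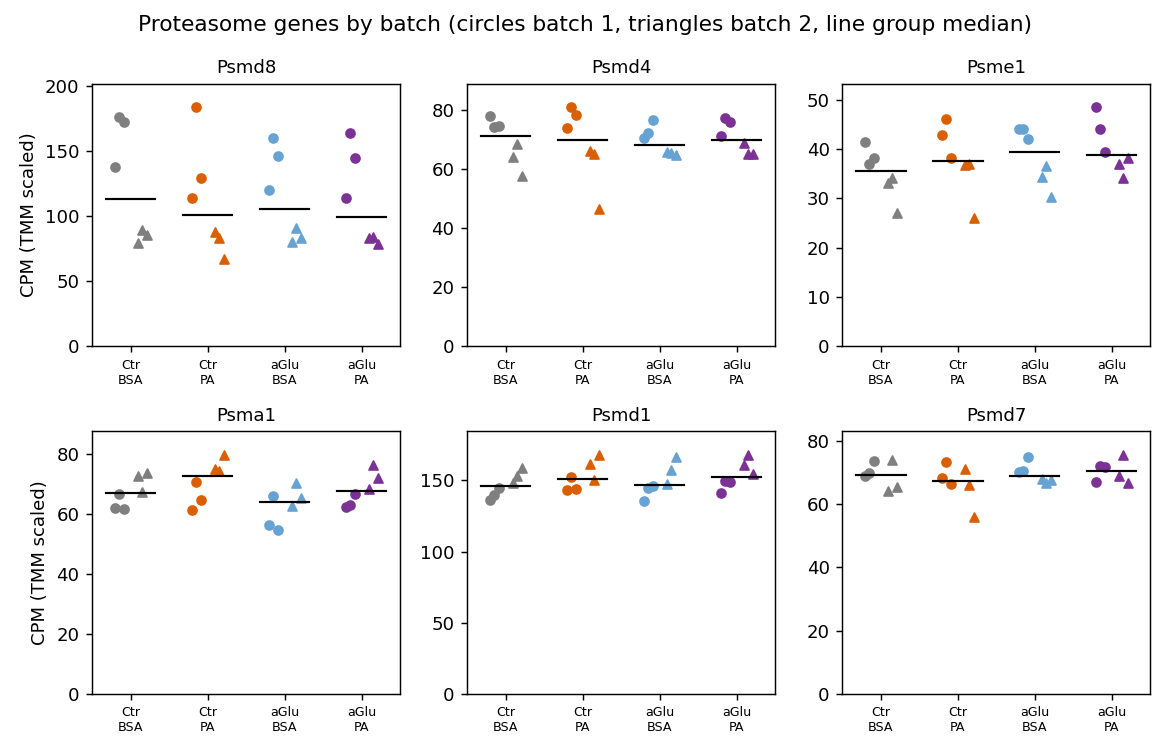
CPM after TMM scaling of 6 proteasome genes in the 24 libraries by group, with circles for batch 1, triangles for batch 2 and a line at the group median. For Psmd8 every circle lies at or above 114 CPM and every triangle at or below 91.0 CPM, and Psmd4 is also apart, whereas Psme1, Psma1, Psmd1 and Psmd7 overlap between the batches.

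Whether the palmitate response itself differed between batches was tested with the term for palmitate by batch. No proteasome gene passed, at an unadjusted p below 0.05 also none (edgeR), and DESeq2 called 0. Over all genes 0.0314% were called higher and 0.0251% lower. Among the 9 genes called under palmitate, the log2 differences had the same sign in both batches for each call. These genes were picked on both batches together, so the shared sign is no separate support.

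Within groups and batches, the subunit genes varied together from library to library. After removal of group and batch means, the median Pearson correlation over 465 pairs of subunit genes was 0.49 across 24 libraries, and 87.1% of the pairs were above 0. The 3107 other protein-coding genes of the same TPM span had a median of 0.015. The β ring (median 0.71 over 21 pairs) and the ATPases (0.71 over 15 pairs) had higher medians than the α ring (0.50 over 21 pairs) and the other 19S subunits (0.34 over 55 pairs), an order that did not hold without S1 and S23. These points share libraries, and so their depth, scaling and cell mixture, and the correlations are given as a description.

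Over all 24 libraries, some genes had medians outside this shared movement. With the subunit genes, Psma7 and Psmb3 had median correlations of 0.69 and 0.68, while Psmd11 had -0.092, Psmc6 0.052 and Psma1 0.057. The medians of Psmc6 and Psma1 hide values of both signs. Psmc6 had 0.76 with Psma3, 0.59 with Psma1 and -0.43 with Psmd3, and Psma1 had -0.36 with Psmc5. The activators Psme3 (-0.48) and Psme4 (-0.40), both of which can open the 20S core in the nucleus in place of the 19S particle, ran opposite to most subunit genes. Without S1 and S23 the median of the 465 pairs was 0.47. The α ring (0.63) and the β ring (0.62) then stood above the ATPases (0.47) and the other 19S subunits (0.29). Pairs above 0 rose from 87.1% to 94% without S23 alone, and from 80% to 93.3% among the ATPases. In S23, Psmc6 (0.19), Psma1 (0.08), Psmd11 (0.052), Psme3 (0.06) and Psme4 (0.25) lay above their fitted level, while most subunits lay below. The part of S23 in the values by gene was not tested.

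S23 was the library farthest from its fitted values. In it the median deviation of the subunit genes from their fitted level was -0.195 log2 units, 24 of 31 being lower, with Psmb5 and Psmb6 at -0.51 and Psmc3 at -0.49, whereas Psme4 was at 0.25 and Psmc6 at 0.19. In S1 the same median was 0.084. The deviation of the 45 genes followed transcript length to a different degree in each library, with Spearman values from -0.51 (S15) to 0.43 (S10) and 0.35 in S23, and the part of length in the correlations was not tested.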

How the data were processed

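The authors sequenced stranded mRNA libraries (RNA integrity above 7) and processed the reads in version 5.1 of QIAGEN's RNA-seq Analysis Portal. The labels name GRCm38, whereas no source used here gives the aligner, the annotation release or the use of strand. The deposited counts are raw reads per gene, with empty cells read as 0 and 1 line without a gene (0 counts) left out, and the deposited TPM values are scaled per length and library. The proteasome genes and the gene lists were chosen with earlier results of these data known. Counts were fitted in R 4.3.3 with edgeR 4.0.16 (filterByExpr, TMM, quasi-likelihood test, group and batch terms, all 24 libraries), and genes were called at a Benjamini-Hochberg adjusted p below 0.05 over all tested genes. DESeq2 1.42.0, other scalings, filters and left-out libraries were alternatives. The scripts were checked on simulated data. Log2 CPM used a prior count of 2. Loci came from GENCODE (GRCm38) and promoters from RefSeq. Named in full were the 5 genes of smallest p in each direction, the extremes of each role, the catalytic genes, and set partners, of which 1 is not reported here. In the study's methods a replicate of primary cells is a preparation from another animal, and its treatment groups share that animal. The labels do not say which libraries do, so the fit has no term for it. No library pair was identical.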

Additional observations from a re-analysis of the deposited data

Results flagged for a closer look

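Of 180 sets of 6 libraries (45 genes in 4 groups), 10 held 1 value that stood apart from the other 5 by Dixon's criterion, a wide gap relative to the range, where chance gives about 1 in 20, or 9 sets. Of the 10 values, 4 came from library S1 and 3 from S23.

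In S1 (Ctr BSA), Psmb6 was at 67.5 CPM against 53.3 to 57.2 in the other 5 libraries, Psmc2 at 104 against 91.4 to 95.5, Psmg3 at 10.1 against 5.55 to 7.08, and Psmd14 at 35.8 against 41.8 to 43.3. In S23 (Ctr PA), Psmc3 was at 39.9 CPM against 60.4 to 72.2, Psmg3 at 3.26 against 6.07 to 7.29, and Psme4 at 298 against 212 to 240. The remaining 3 values were Psma3 at 93.9 CPM in S5 (Ctr BSA, others 81.2 to 85.9), Psmd3 at 74.3 in S22 (αGlu BSA, others 86.3 to 90.8) and Psmd5 at 42.7 in S10 (αGlu BSA, others 33.4 to 36.4).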

How the results depend on the processing

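The number of proteasome genes called under palmitate was small, and so moved by more than 1.5 times in several settings. In Ctr cells (4 in the reported fit), 2 genes were called with no filter on low counts, 2 without a batch term, 2 in a fit of the compared groups alone, 1 in batch 1 alone, 0 in batch 2 alone, 0 at the study's threshold of a 2-fold change, and 14 without S1 and S23. In αGlu cells (7), the counts were 4 without a batch term, 11 in the fit of the compared groups alone, 1 in batch 1 alone, 1 in batch 2 alone and 0 at the 2-fold threshold. Between batches (18), 1 gene passed the 2-fold threshold. A batch alone holds 3 libraries a group. The other causes were not tested.

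With each library left out in turn, the calls ran from 2 to 8 in Ctr, from 5 to 9 in αGlu cells and from 16 to 19 between batches, and stayed at 0 for the other comparisons. The median log2 fold change of the 45 genes then ran from 0.036 to 0.079 in Ctr and from 0.062 to 0.095 in αGlu cells. That of the interaction, 0.035 as reported, was -0.043 without S1 and S23. Scaling by library totals turned the split between batches from 12 higher and 6 lower to 3 higher and 11 lower, with 9 of the 18 genes kept, while Psmd8 stayed lower. None of the 33 calls of named genes changed direction in a setting run for it. No paired analysis was possible because the labels do not say which libraries of the groups came from the same preparation, and the groups share no replicate numbers.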

Other observations

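Exons of 13 of the 47 proteasome genes overlapped exons of another gene in GENCODE on GRCm38, 4 of them on the same strand. Beyond Psmd9 and Psmb5, the largest overlaps were those of Psmc3ip with Mlx (21.2% of its exon bases, opposite strand), Psmb7 with Nek6 (11.8%, opposite strand), Psmd13 with Sirt3 (10.1%, opposite strand), Psmg3 with Gm26938 (9.68%, same strand) and Psmc3 with Slc39a13 (8.25%, opposite strand). How reads in shared exons were assigned is not given in the sources used for this work.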
